A study of Mus musculus with 8 samples.

Results

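The response of sorted mouse melanocytes to ultraviolet B light (UVB) was measured in the EGFP+ cells of 4 mice, of which 2 were given UVB and 2 were mock treated under normal light. These 4 libraries of the 8 in the series were chosen by their labels alone, as the EGFP+ columns with and without UV, and every gene of the deposited table was considered. All mice were C57BL/6J carrying the ROSA mTmG reporter and a tamoxifen-inducible Cre driven by a tyrosinase promoter (Tyr:CreERT2). Membrane tdTomato is made until Cre removes it and membrane EGFP is made from then on, so EGFP marks cells in which the tyrosinase promoter drove Cre while tamoxifen was present, together with their descendants. Tamoxifen was injected daily for 10 days from postnatal day 21, the back was shaved and depilated on day 50, UVB at 150 mJ/cm2 or mock light was given for 3 days, and back skin was dissociated and sorted on day 54. The 2 arms therefore share the reporter, Cre, tamoxifen and depilation, and by the labels they differ in the light. The remaining 4 libraries are the tdTomato+ skin cells of the same mice, sorted from the same dissociations. The no UV arm is mice 1 and 2 and the UV arm is mice 3 and 4, called replicates 1 and 2 of each arm, so the arms are different animals and a replicate number does not link them.

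Melanocytes make melanin in melanosomes and hand these to keratinocytes, and their identity depends on the transcription factor MITF and the receptor KIT. UVB is absorbed by DNA and forms pyrimidine dimers, which are removed by nucleotide excision repair. The damage stabilises the transcription factor p53, whose targets act in cell cycle arrest, apoptosis and repair, and p53 in keratinocytes also drives the signal that makes melanocytes tan.

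Values below are normalized reads, that is whole reads divided by 1 size factor per library, and are given in the order no UV replicates 1 and 2, then UV replicates 1 and 2. The 4 EGFP+ libraries held 13288698 to 16200359 reads. Changes are differences of log2(value + 1) between arm means, with a standard error from limma, and a gene was called at a Benjamini-Hochberg adjusted p under 0.05 over 18070 genes tested. The pseudocount of 1 understates the change of low genes.

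UV replicate 2 stood apart from the other EGFP+ libraries. Reads were found in 11186 genes in it, against 14503 in UV replicate 1 and 14922 and 15867 without UV. Of the 9770 genes whose mean was at least 50 normalized reads in the other 3 EGFP+ libraries, 331 (3.39%) had no read in UV replicate 2, against 4 to 8 genes when the same was asked of each other library. Across genes, log2 values of UV replicate 2 correlated with those of UV replicate 1 at a Pearson r of 0.925, whereas UV replicate 1 correlated with the no UV libraries at 0.959 and 0.955. Mouse 1 differed from the others by sex-linked genes: Xist was at 397 normalized reads in no UV replicate 1 and at no more than 1.90 elsewhere, while Ddx3y was at 1.66 there and at 1174 to 1746 in the rest. The arms thus also differ in these genes, and for a gene that depends on sex the 2 cannot be told apart. Several results are given with and without UV replicate 2, and those of the called genes also without the EGFP+ library of mouse 1.

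The melanocyte label held in every EGFP+ library. Dct, an enzyme of melanin synthesis, was at 238190 to 345157 normalized reads and Mlana, a melanosome protein, at 12179 to 30003, whereas Mlana was at 97.1 to 1790 in the tdTomato+ cells. Markers of other skin cells were read in every EGFP+ library. Basal keratinocyte markers summed to 2800 and 4295 without UV and 2655 and 4659 with UV, with Krt14 at 203, 233, 227 and 341, and the same 19 genes summed to 419925 to 506222 in the tdTomato+ libraries. Fibroblast markers summed to 486 and 337 without UV and 49.5 and 386 with UV, so the sum was low only in UV replicate 1. Of the 15 markers, 5 and 3 were at 0 without UV, 5 in UV replicate 1 and 7 in UV replicate 2. At an unadjusted p under 0.05, 4 of the 15 were lower, with Col6a1 among them, and 0 higher. Over all genes tested 7.09% were lower and 3.28% higher in this way. Schwann cell markers are described further on.

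Leukocyte markers summed to 6996 and 7059 without UV and 9304 and 6010 with UV, against 2770 to 12645 in tdTomato+ cells. Most of that sum was Kit, which melanocytes and mast cells share (4429, 4202, 5712 and 5297), and Cd14 (2123, 2397, 2511 and 77.6). Of the 20 markers, 10 were at 0 in each EGFP+ library but UV replicate 2, where 13 were. The T cell gene Cd3e was at 0 in all 4, and Ptprc, the pan-leukocyte marker, was at 0 in all but no UV replicate 2, at 4.75.

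The UVB comparison called 3 genes, all lower with UV, which is 0.0166% of the genes tested. They were Ptn, Crabp2 and Col6a1, and no gene was called higher. At an unadjusted p under 0.05, 593 genes (3.28%) were higher and 1282 (7.09%) lower. The arms did not overlap, with both UV libraries above or both below the no UV libraries, for 2295 genes higher (12.7%) and 3741 lower (20.7%). With edgeR on the recovered reads 4 genes were called and with DESeq2 350, of which 84 were higher and 266 lower. The fit without UV replicate 2 called 0 genes, and that without UV replicate 1 called 1604. The number of calls thus differed widely between settings, and the values of each library are given for the genes below.

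**Figure D1:**
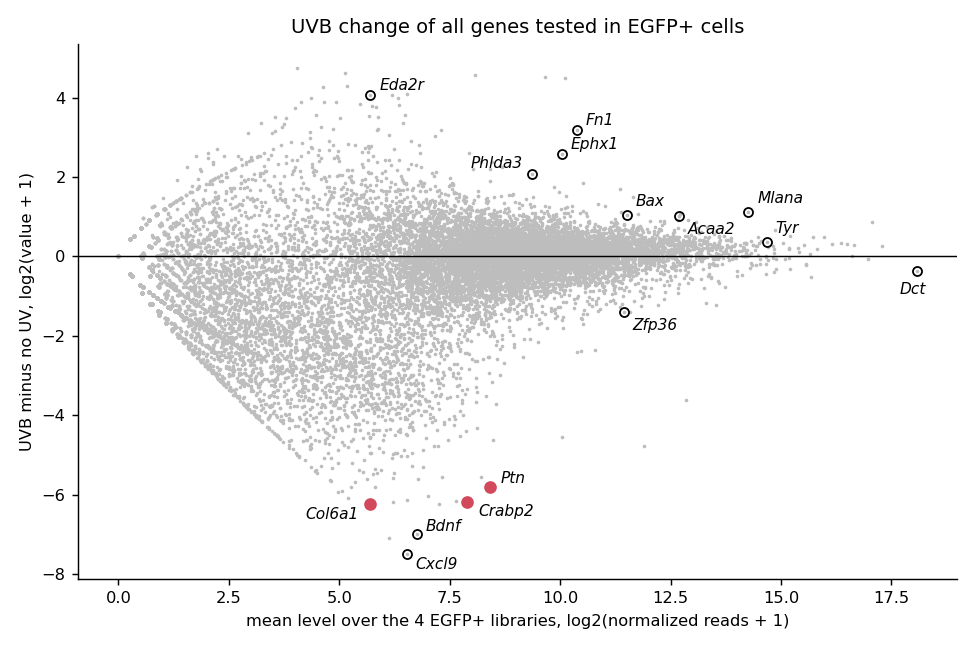
Each point is 1 of the 18070 genes tested, by its mean level over the 4 EGFP+ libraries (x axis, log2 of normalized reads plus 1) and its change with UVB (y axis, log2). Filled red points are the 3 called genes, at changes of -5.80 to -6.24. Open circles are other genes described in the text, with Phlda3 at 2.08 and Dct at the highest level.

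Ptn, Crabp2 and Col6a1 nearly disappeared from the EGFP+ cells of the UVB-treated mice. Ptn encodes pleiotrophin, a secreted heparin-binding growth factor (chr6:36714924-36810179, minus strand, GRCm38). It was at 956 and 375 normalized reads without UV and at 12.6 and 7.54 with UV. The arm means were 665 ± 411 and 10.1 ± 3.56 (SD, n = 2), and both UV libraries lay far below both no UV libraries. The change was -5.80 ± 0.46 (SE), a 55.6-fold fall, with an adjusted p of 0.016 by limma.

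Crabp2 encodes a protein that carries retinoic acid to its nuclear receptors (chr3:87948693-87953372, plus strand). Its values were 693 and 248 without UV and 6.71 and 3.23 with UV, with arm means of 470 ± 314 and 4.97 ± 2.46 (SD, n = 2). The arms did not overlap, and the change was -6.19 ± 0.54 (limma adjusted p = 0.018). Col6a1, a chain of collagen VI (chr10:76708792-76726044, minus strand), was at 99.8 and 104 without UV and at 0.839 and 0 with UV. The UV arm held 1 read in all, for a ratio of 215 between the arms (95% exact interval 38.3 to 8543, counting error only). Its fitted change was -6.24 ± 0.63, with a limma adjusted p of 0.038.

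The directions of these 3 held in every setting tried, but the calls did not. Without UV replicate 2 the limma adjusted p was 0.090 for Ptn, 0.094 for Crabp2 and 0.066 for Col6a1, at changes of -5.46, -5.75 and -5.80. Without no UV replicate 1, the library of mouse 1, the changes were -5.12, -5.45 and -6.27 and the adjusted p was 0.193 for each. In the fit of the EGFP+ libraries alone it was 0.687 for each of the 3. Leaving out either no UV library or any 1 tdTomato+ library, which also enter the estimate of the spread, ended all 3 calls. All 3 transcripts were more abundant in the tdTomato+ cells than in the EGFP+ cells: Ptn was at 7492 and 6753 there without UV and 2971 and 4403 with UV. Beside Col6a1, which is itself on the fibroblast list, that list's sum was low in UV replicate 1 (49.5) and not in UV replicate 2 (386). In UV replicate 2, however, 7 of the 15 markers were at 0. The part of other cells in these 3 differences was not tested.

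**Figure D2:**
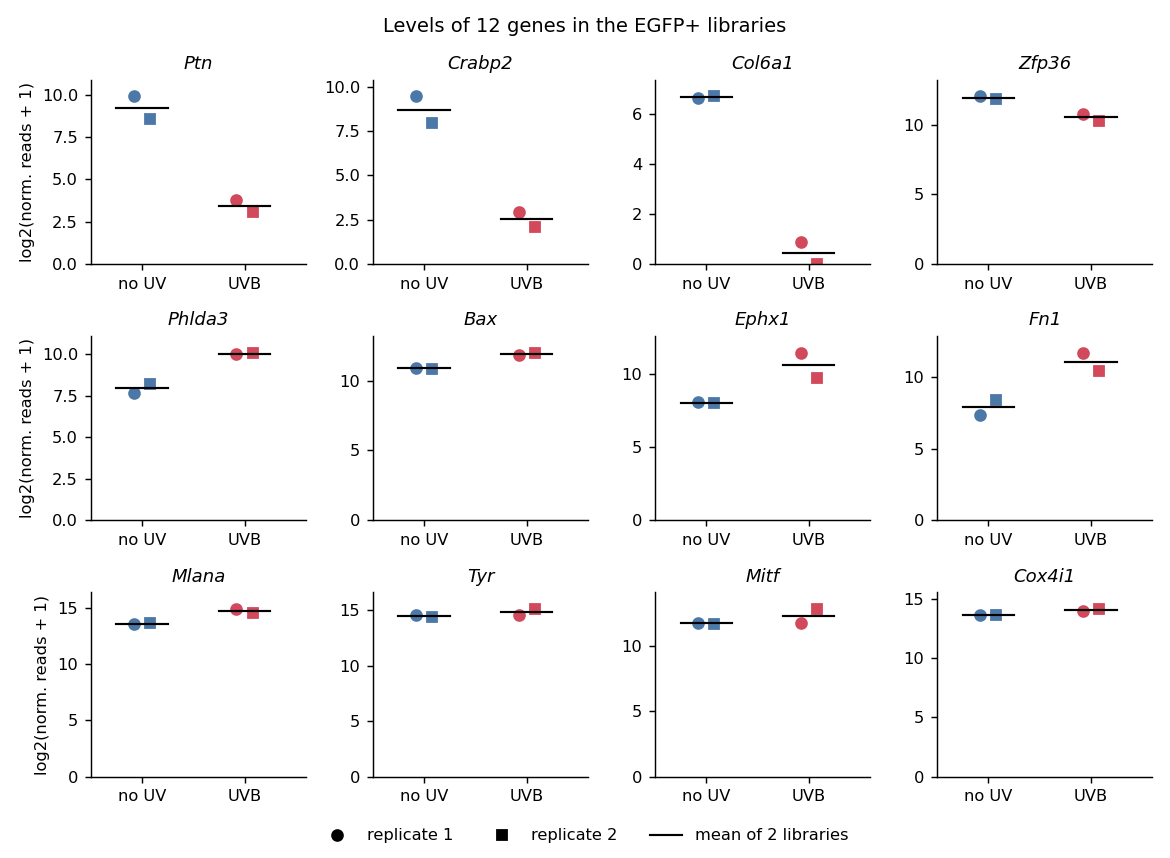
Levels of 12 genes in the 4 EGFP+ libraries, as log2 of normalized reads plus 1 (y axis), without and with UVB (x axis). Circles are replicate 1, squares replicate 2 and lines the mean of 2 libraries. The arms are separate for Ptn, Crabp2, Col6a1, Zfp36, Phlda3, Bax, Ephx1, Fn1, Mlana, Cox4i1 and, narrowly, Tyr. In Mitf UV replicate 1 lies among the no UV libraries.

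Genes listed for the pleiotrophin system, with Ptn counted among them, were lower in several cases. The list was chosen with earlier results of these data known. Of 12 ligands, receptors and co-receptors tested, 6 were lower and 0 higher at an unadjusted p under 0.05, against 7.09% and 3.28% of all genes tested. Of the 6, 1 was called (Ptn), and the median change was -0.94 against -0.11 for all genes tested. Ptprz1, a receptor phosphatase that binds pleiotrophin, was at 73.2 and 48.5 normalized reads without UV and had no read with UV. That is at least 43.6-fold lower, taking 3 reads over the UV arm as the floor (limma adjusted p = 0.099, not called). The heparan sulfate co-receptors Sdc4 (736 and 653 without UV, 474 and 241 with UV) and Sdc1 (115 and 110 against 65.4 and 18.3) had separate arms and changes of -1.03 and -1.66. Mdk, the related ligand midkine, did not pass, at 67.4 and 106 without UV and 52.0 and 57.1 with UV. The list's median over UV replicate 1 alone was -0.72.

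Retinoid handling genes were lower more often than higher, as were all genes tested, and Crabp2 was the only one called. Of 22 tested, 1 was higher and 4 lower at an unadjusted p under 0.05, against 3.28% and 7.09% of all genes. Crabp2 is among the 4. The arms were separate for 3 on the upper side and 6 on the lower side, against 12.7% and 20.7%. The median was -0.48, with -0.56 over UV replicate 1 and -0.63 over UV replicate 2. In 5 of the 22, neither arm held more than 3 reads. Crabp1, the close relative of Crabp2, was scarce at 23.3 and 8.56 without UV and 5.03 and 0 with UV. Rxrg, a retinoid X receptor, was at 268 and 216 without UV, 76.3 in UV replicate 1 and 0 in UV replicate 2, so most of its fitted change came from the library with missing genes. The receptors Rara and Rarg did not pass the test, at changes of -0.43 and 0.56.

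Several targets of p53 had higher values in both UV-treated mice, with Phlda3 the p53 target of smallest p. Of the 37 p53 targets tested, 10 were higher and 3 lower at an unadjusted p under 0.05, against 3.28% and 7.09% of all genes tested, and none was called. The median change of the list was 0.10, with -0.11 for all genes, and 0.39 over UV replicate 1 alone.

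Phlda3, which restrains AKT signalling (chr1:135766085-135769134, plus strand), was at 205 and 301 normalized reads without UV and 1018 and 1092 with UV. All UV values exceeded all no UV values, for a change of 2.08 ± 0.28 (SE), a 4.23-fold difference with a limma adjusted p of 0.079. Without UV replicate 2 its change was 2.03. Bax, which opens the outer mitochondrial membrane in apoptosis, was at 1925 and 1882 without UV and 3758 and 4101 with UV, a change of 1.04 ± 0.17 (limma adjusted p = 0.114). The replicates of each arm lay close together for both genes.

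Among the other targets with an unadjusted p under 0.05 on the higher side, the replicates spread more. Pmaip1, the BH3-only protein NOXA, was at 46.6 and 15.2 without UV and 106 and 148 with UV. Eda2r, a death receptor of the TNF receptor family, was at 2.50 and 5.70 without UV and 155 and 41.0 with UV. Its change was 4.06 ± 0.87 (limma adjusted p = 0.177), and the UV replicates differed from each other. Ephx1, an epoxide hydrolase, was at 267 and 255 without UV, 2823 in UV replicate 1 and 854 in UV replicate 2. Zmat3, an RNA-binding p53 target, was at 28.3 and 85.6 against 219 and 208, and Ccng1, cyclin G1, at 776 and 594 against 1540 and 1092.

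Other members of the list did not pass or were lower. Cdkn1a, which encodes the cell cycle inhibitor p21, was at 4362 and 5822 without UV and 5785 and 3072 with UV. Mdm2, which encodes the ligase that degrades p53, was at 1569 and 1375 against 1923 and 1105. In both genes UV replicate 1 was above UV replicate 2, the arms overlapped, and the changes of -0.26 and -0.01 turned positive without UV replicate 2, at 0.20 and 0.39. Plk2 (1906 and 2284 against 1382 and 656) and Gadd45a (1198 and 793 against 471 and 514) were lower. Fas, a death receptor, was also lower, at 210 and 361 without UV and at 127 and 0 with UV.

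A p53 recognition motif was looked for in promoters of the p53 target of smallest p and of the best known one. The 250 bases before the start of Phlda3 and of a start of Cdkn1a (2 starts are listed) are shown from RefSeq (GRCm38.p6), at chr1:135765835-135766084 and chr17:29090729-29090978, both on the plus strand. Capitals mark CATG, any 6 bases and CATG again, a pair of p53 core letters that reads the same on both strands, with the bases between them.
Phlda3: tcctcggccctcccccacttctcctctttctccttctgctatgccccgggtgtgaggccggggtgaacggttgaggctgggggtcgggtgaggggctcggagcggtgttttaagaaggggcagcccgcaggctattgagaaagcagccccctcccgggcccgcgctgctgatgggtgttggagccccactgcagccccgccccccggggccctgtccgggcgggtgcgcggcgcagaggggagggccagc
Cdkn1a: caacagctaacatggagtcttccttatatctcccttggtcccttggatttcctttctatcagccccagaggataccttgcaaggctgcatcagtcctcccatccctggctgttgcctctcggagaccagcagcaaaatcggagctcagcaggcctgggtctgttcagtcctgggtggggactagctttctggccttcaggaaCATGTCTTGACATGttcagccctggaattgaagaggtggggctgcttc
In Cdkn1a the motif lies 48 to 35 bases before the start. It occurs in 161 of 32851 mouse promoter windows (0.490%). The 29 p53 targets have 41 windows, of which 1 held it, at the Cdkn1a start shown. That start was picked because its window holds the motif, and the window of the other Cdkn1a start does not. These letters are not in this window of Phlda3.

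Repair genes showed no shared change. Of 31 genes of nucleotide excision repair and damage signalling, 1 was higher and 1 lower at an unadjusted p under 0.05. Their median change was 0.04. The shares over all genes tested were 3.28% higher and 7.09% lower. Ercc1, part of the nuclease that cuts beside a lesion, was at 475 and 347 normalized reads without UV and 598 and 689 with UV (limma adjusted p = 0.468). The lesion sensors Xpc (119 and 165 against 174 and 111) and Ddb2 (73.2 and 60.9 against 67.1 and 35.6) overlapped between arms.

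Beyond the p53 targets, the genes with the smallest p among those higher with UV had mixed functions and none was called. Tmem176b, a membrane protein of the MS4A-like family, was at 1114 and 1352 without UV and 3744 and 4211 with UV (change 1.69 ± 0.23, limma adjusted p = 0.079). Acaa2, a mitochondrial thiolase of fatty acid oxidation, was at 4304 and 4454 without UV and 9322 and 8367 with UV (1.01 ± 0.15). Both had tight replicates and separate arms. Fn1, fibronectin of the extracellular matrix, was at 168 and 350 without UV and 3389 and 1430 with UV, a change of 3.18 ± 0.50 (limma adjusted p = 0.101). Cryab, a small heat shock protein, was at 77.3 and 58.9 against 367 and 472. Ptgr1, Cox6b2, Ly6e, Tmem98 and Ephx1, also given by the naming rule, had changes of 1.50 to 2.57, and their arms did not overlap.

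Among the genes with the smallest p on the lower side were signalling molecules of nerve and immune tissue. Bdnf, a neurotrophin, was at 343 and 86.5 without UV and at 0.839 and 0 with UV, where 1 read was found. Lpar1, a lysophosphatidic acid receptor, was at 102 and 116 against 0.839 and 1.08, for a ratio of 115 (95% exact interval 31.6 to 957). Cxcl9, an interferon-gamma-induced chemokine, was at 161 and 203 without UV and had no read with UV, which is at least 128-fold lower with a floor of 3 reads over the arm. Chchd6, a mitochondrial cristae protein, was the best measured of these, at 991 and 945 without UV and 184 and 150 with UV (change -2.54 ± 0.30, limma adjusted p = 0.073). None of them was called. Scin, Plxdc2 and Fam172a, also given by the naming rule, had changes of -4.75, -4.94 and -2.16.

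The MHC class II genes, which present antigen to T cells, were low in both UV libraries. All 7 tested had separate arms on the lower side, 6 were lower at an unadjusted p under 0.05 and none was called. Over all genes tested, 20.7% were separate and 7.09% lower in this way. The median change was -4.02, and -3.08 over UV replicate 1 alone. H2-Aa was at 299 and 300 without UV and 6.71 and 1.08 with UV, a change of -6.23 ± 0.79 (limma adjusted p = 0.073). H2-Eb1 was at 111 and 183 against 4.19 and 1.08, and H2-Ab1, the least reduced, at 580 and 408 against 122 and 341. Ciita, the master regulator of the class, was scarce at 5.82 and 9.51 without UV and absent with UV. In tdTomato+ cells the median change of the 7 genes was -2.56. The leukocyte marker sums and the markers at 0 are given above, and the part of leukocytes in the class II values was not tested. In bulk libraries, fewer cells of a type and less RNA per cell cannot be told apart.

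Other immune genes moved in both directions. Of 45 interferon response genes, 3 were higher and 6 lower at an unadjusted p under 0.05. The shares over all genes tested were 3.28% higher and 7.09% lower. Their median change was -0.21, with 0.04 over UV replicate 1 alone and -0.34 over UV replicate 2 alone. Irf1, a transcription factor of the interferon response, was at 2934 and 1813 without UV and 796 and 1172 with UV. Bst2, a membrane protein that tethers virus particles, went the other way at 760 and 1406 against 2264 and 2960. Among 33 cytokines and chemokines 3 were higher and 6 lower. Il6 was at 80.7 and 21.9 against 1.68 and 0, and Tnfaip3, a brake on NF-kB signalling, at 21.6 and 43.7 against 3.36 and 1.08. MHC class I genes were near no change, with a median of 0.02 over 19 tested.

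Immediate early genes, which respond to growth factor and stress signals within minutes, were lower or level in the UV libraries. Of 32 tested, 0 were higher and 11 lower at an unadjusted p under 0.05, with 15 separate on the lower side and 0 on the upper side, and none was called. Over all genes tested 7.09% were lower and 20.7% separate on the lower side. The median change was -0.50, made up of -0.86 in UV replicate 1 and -0.09 in UV replicate 2. Zfp36, which encodes a protein that destabilises inflammatory mRNAs, had the smallest p: 4242 and 3790 without UV and 1795 and 1271 with UV (-1.41 ± 0.20, limma adjusted p = 0.079). The nuclear receptor Nr4a1 was at 2197 and 3016 against 622 and 1577. Atf3, a stress-induced transcription factor, was at 11841 and 13509 without UV, 6287 in UV replicate 1 and 12231 in UV replicate 2, so its arms overlapped. In tdTomato+ cells the median of the same list was -0.67.

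Pigment genes were abundant in every EGFP+ library, and none was called. Of 32 genes of melanin synthesis and the melanosome, 4 were higher and 1 lower at an unadjusted p under 0.05. Over all genes tested 3.28% were higher and 7.09% lower in this way. The arms were separate for 8 of the 32 on the upper side and 5 on the lower side, against 12.7% and 20.7% of all genes. The median change was 0.11. Mlana was at 12179 and 12447 normalized reads without UV and 30003 and 23733 with UV, a change of 1.12 ± 0.30 (limma adjusted p = 0.282), and 1.28 without UV replicate 2. Tyrp1, an enzyme of eumelanin synthesis, was at 103447 and 89462 against 177752 and 175032, with separate arms but a standard error of 0.52 on a change of 0.87. Rab38 and Bloc1s1, which sort cargo to melanosomes, had changes of 0.81 and 0.69.

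The other core pigment genes did not pass, though the arms of Tyr and of Dct did not overlap. Tyr, which encodes tyrosinase, was at 24200 and 21330 without UV, 24468 in UV replicate 1 and 34824 in UV replicate 2, a change of 0.36 ± 0.45. Dct was at 282004 and 345157 against 238190 and 249432, a change of -0.36 ± 0.35. Pmel, which forms the fibrils of the melanosome, had a change of 0.01 ± 0.44. Thus Tyrp1 and Dct, both abundant and neighbours in the same pathway, had changes of opposite sign, and neither passed the test.

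The E-box letters read by MITF are common in promoters of these genes. The 250 bases before the start of Tyrp1 (chr4:80833963-80834212, plus strand) and of Bloc1s1 (chr10:128923525-128923774, minus strand) are given from RefSeq (GRCm38.p6), as 2 pigment genes with separate arms. Capitals mark CATGTG and CACGTG, searched on both strands.
Tyrp1: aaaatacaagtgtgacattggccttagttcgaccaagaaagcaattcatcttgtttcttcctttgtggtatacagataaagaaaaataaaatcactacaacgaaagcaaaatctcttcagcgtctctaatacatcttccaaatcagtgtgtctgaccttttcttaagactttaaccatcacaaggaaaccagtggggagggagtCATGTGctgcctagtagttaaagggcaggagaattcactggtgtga
Bloc1s1: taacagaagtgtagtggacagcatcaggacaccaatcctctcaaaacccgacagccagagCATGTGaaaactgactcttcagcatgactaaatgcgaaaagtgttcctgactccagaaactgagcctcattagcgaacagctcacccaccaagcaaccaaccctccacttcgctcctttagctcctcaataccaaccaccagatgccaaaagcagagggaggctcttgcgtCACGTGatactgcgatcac
CATGTG lies 46 to 41 bases before the start of Tyrp1 and 190 to 185 before that of Bloc1s1, which also holds CACGTG 19 to 14 bases before it. CATGTG was in 10 of 31 windows of the pigment list (32.3%) and in 12.3% of all 32851 windows. CACGTG was in 8 of 31 (25.8%) and in 6.02% of all. Dct and Tyr, whose changes did not pass, are also among the 10 with CATGTG.

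Regulators of the lineage did not pass the test in either direction. Of 23 genes 0 were higher and 0 lower at an unadjusted p under 0.05, against 3.28% and 7.09% of all genes tested. Their median change was -0.14. Mitf was at 3596 and 3355 without UV, 3592 in UV replicate 1 and 7407 in UV replicate 2, so only the library with missing genes was high (0.57 ± 0.42). Kit was at 4429 and 4202 against 5712 and 5297, a change of 0.35 ± 0.48 with separate arms. Sox10, which activates Mitf, had a change of 0.08 ± 0.74, and Ednrb, the endothelin receptor, -0.08 ± 0.42.

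Matrix, adhesion and glial genes were lower in many cases, mostly from low levels. Of 30 matrix and protease genes 1 was higher and 12 lower at an unadjusted p under 0.05, with 17 separate on the lower side and a median of -1.36, or -0.93 over UV replicate 1. The shares over all genes were 7.09% lower and 20.7% separate on the lower side. Tnc, tenascin C, was at 49.1 and 76.1 against 5.03 and 0. Plat, the tissue plasminogen activator, was an abundant member at 13554 and 14096 without UV and 7493 and 4990 with UV (-1.18 ± 0.30, limma adjusted p = 0.261). Of 27 genes of neural crest adhesion and guidance 1 was higher and 12 lower, with a median of -0.78. Gfra1, a receptor for GDNF-family ligands, was at 74.0 and 39.0 against 2.52 and 1.08. L1cam, a neural adhesion molecule, was the higher one at 68.2 and 51.3 against 201 and 175. This list had a median gene length of 154 kb, against 20.8 kb for all genes tested.

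Of the 16 Schwann cell and glia markers, 11 were separate on the lower side and 5 were lower at an unadjusted p under 0.05, with a median of -1.93, beside the same shares over all genes. Mbp, a myelin protein, was at 74.9 and 31.4 normalized reads without UV and had no read with UV (limma adjusted p = 0.086), and Sox2, a stem and glial progenitor factor, was at 39.9 and 14.3 against 0 and 0. Gfap was at 529 and 87.5 without UV and 20.1 and 0 with UV. No marker was at 0 in either no UV library, while 5 were at 0 in UV replicate 1 and 8 in UV replicate 2. Their sum was 16112 and 14870 without UV, 15514.5 in UV replicate 1 and 9510 in UV replicate 2. The sum was thus low only in UV replicate 2. The part of such cells in the other differences was not tested.

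Cell cycle genes differed more between the mice of an arm than between the arms. Their median difference, replicate 2 minus replicate 1, was -1.66 without UV and -2.38 with UV, and the median change with UVB was -0.33. In 35 of 41 genes tested, replicate 1 exceeded replicate 2 in both arms, which was so for 22.8% of all genes tested. Ccnb1, the mitotic cyclin, was at 694 and 56.1 without UV and 463 and 7.54 with UV. Top2a, the topoisomerase of dividing cells, was at 537 and 59.9 against 539 and 9.70. The list's median over UV replicate 1 was 0.56 and over UV replicate 2 was -1.42, so no common UVB change could be read from it. The shared number does not pair animals, since the arms are different mice, and a shared batch was not tested.

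Within this list Ccnd1 and Cdkn2b had separate arms. Ccnd1, cyclin D1 of the G1 phase, was at 734 and 430 normalized reads without UV and 137 and 38.8 with UV (-2.93 ± 0.53, limma adjusted p = 0.130). Cdkn2b, an inhibitor of cyclin D kinases, was at 32.4 and 31.4 without UV and had no read with UV, which is at least 22.6-fold lower.

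Nuclear-encoded respiratory chain genes were slightly higher with UV. Of 24 tested, 8 were higher and 0 lower at an unadjusted p under 0.05, against 3.28% and 7.09% of all genes. Arms were separate on the upper side for 19, against 12.7% of all genes. Their median change was small, at 0.32, with 0.36 in UV replicate 1 and 0.29 in UV replicate 2. Cox4i1, a subunit of cytochrome c oxidase, was at 12660 and 12538 without UV and 16634 and 18071 with UV (0.46 ± 0.13, limma adjusted p = 0.304). The subunits Cox5b and Cox7a2 had changes of 0.62 and 0.66. The median in tdTomato+ cells was 0.40.

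Ribosomal protein genes had a similar median of 0.27, with 8 of 25 separate on the upper side, against 12.7% of all genes. The median gene length was 8.09 kb for the respiratory chain and 3.95 kb for the ribosomal proteins. Quantile normalization moved the change of single genes by a median of 0.27 over all genes tested. TMM scaling moved it by -0.03 and rescaling without the 20 most abundant genes by -0.07. Small shared shifts can thus depend on the scaling, and its effect on these lists was not tested.

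The remaining lists held members in both directions or few at an unadjusted p under 0.05. Heat shock genes numbered 1 higher and 4 lower of 15, with Dnajb1 at 4623 and 4865 against 3106 and 2518. NRF2 and redox genes numbered 2 higher and 5 lower of 27, with Txnrd1, thioredoxin reductase, at 3255 and 3216 against 1611 and 2151. Of these 27, 13 were separate on the upper side and 5 on the lower side, with a median of 0.21. Lysosomal genes numbered 3 higher and 2 lower of 28, with 11 separate on the upper side, 5 on the lower side and a median of 0.24. Over all genes 12.7% were separate on the upper side and 20.7% on the lower side. The shares at an unadjusted p under 0.05 were 3.28% higher and 7.09% lower. At an unadjusted p under 0.05 there were, higher and lower, glycolytic genes 3 and 3 of 22, apoptosis genes 3 and 2 of 25, Wnt pathway genes 1 and 4 of 23 and unfolded protein response genes 0 and 2 of 26. Notch and metallothionein genes held none in either direction.

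**Figure D3:**
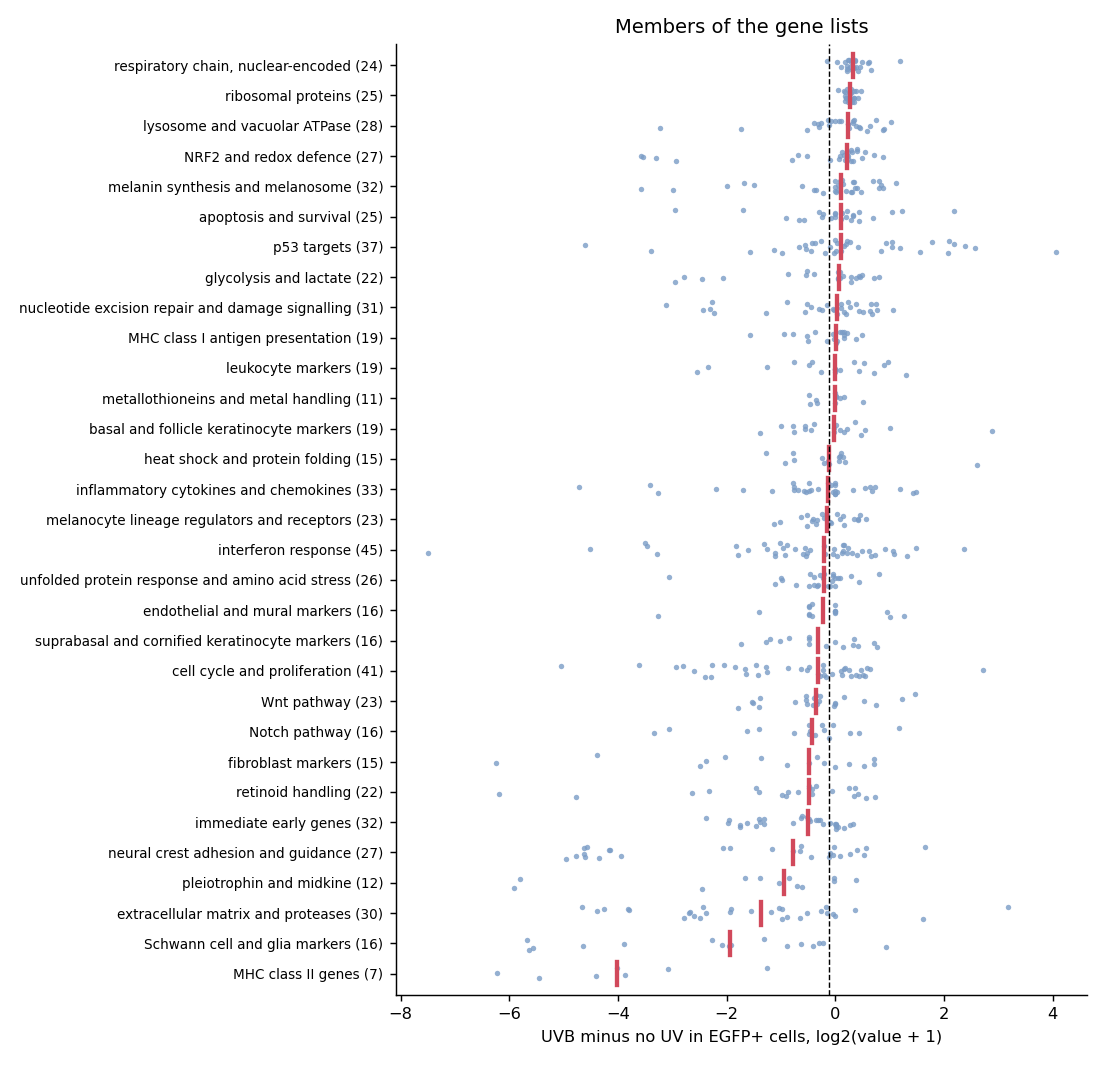
Each point is a gene and each row a list, with the number of genes tested in parentheses; the x axis is the change with UVB in EGFP+ cells (log2). Red bars are list medians, from -4.02 for MHC class II to 0.32 for the respiratory chain, and the dashed line is the median of all genes tested, -0.11.

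Changes also followed gene length, which was looked at after the values had been seen. Among 9279 genes with a mean of at least 50 normalized reads and a known length, the median change was 0.17 for genes up to 10 kb (n = 2229), -0.17 from 100 to 200 kb, -0.42 from 200 to 400 kb and -1.29 over 400 kb (n = 100). Of the 100 longest, 82% had lower values with UV, and 43 were lower and 0 higher at an unadjusted p under 0.05. The medians over 400 kb in the 2 UV replicates were -1.10 and -1.002. Across all 9279 genes Spearman's rho between gene length and change was -0.20. With the length of the longest transcript it was -0.22 (n = 9257). For the difference between the no UV replicates, rho was 0.13 with gene length and 0.22 with transcript length. These are descriptions across genes of the same 4 libraries, and genes are not replicates.

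The long genes named here were chosen with their values known and have small p. Their falls were larger than the median of -1.29 over 400 kb, so they do not show its typical size. Fam172a (458 kb) was at 1052 and 1295 normalized reads without UV and 305 and 222 with UV. Gmds (519 kb), an enzyme of GDP-fucose synthesis, was at 809 and 742 against 192 and 200. Wwox (913 kb), a gene at a common fragile site, was at 314 and 257 against 21.8 and 25.9. Pde4b (520 kb), a cAMP phosphodiesterase, was at 1861 and 2598 against 819 and 550. In each of these both UV libraries were below both no UV libraries.

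The gene length pattern was smaller elsewhere and weakened in abundant genes. In tdTomato+ cells the median over 400 kb was -0.54. Between the no UV replicates, which share their treatment, it was 0.30 for replicate 2 minus replicate 1, so untreated mice also differed along length. Among genes with a mean of at least 500 normalized reads the median over 400 kb was -0.08 (n = 26), with opposite signs in UV replicate 1 (-0.41) and UV replicate 2 (0.24). Among genes whose longest transcript is 2 to 4 kb the median over 200 kb was -0.79, against -0.65 for all genes of that length, and the median up to 10 kb was 4.05e-05 in place of 0.17.

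**Figure D4:**
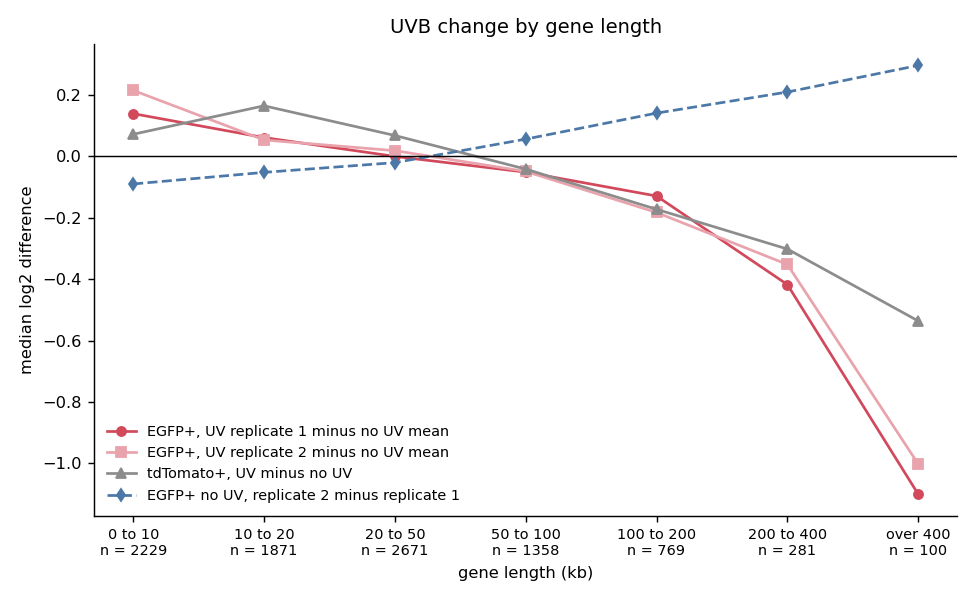
Median log2 difference (y axis) of genes in 7 classes of gene length (x axis, kb, with the number of genes). Both EGFP+ UV replicates reach -1.10 and -1.002 over 400 kb, tdTomato+ cells to -0.54, and the difference between the no UV replicates goes to 0.30.

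Set beside the tdTomato+ cells of the same mice, the UVB change of EGFP+ cells differed at 1 gene. The difference between the changes of the 2 populations passed at an adjusted p under 0.05 for Odc1, which is 0.00553% of the genes tested, and 1814 genes had an unadjusted p under 0.05. Odc1 encodes ornithine decarboxylase, the first enzyme of polyamine synthesis. It was at 6386 and 6795 normalized reads without UV and 3498 and 2268 with UV in EGFP+ cells, and at 3238 and 3143 against 13996 and 12662 in tdTomato+ cells. The changes were -1.23 ± 0.21 and 2.06 ± 0.21, and the difference was -3.29 ± 0.30 (limma adjusted p = 0.0496).

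None of the 3 called genes had a difference that passed. The differences were -4.82 for Ptn, -6.43 for Crabp2 and -4.69 for Col6a1, with limma adjusted p values of 0.124, 0.079 and 0.206. Phlda3 was at 1707 and 1426 without UV and 4193 and 2899 with UV in tdTomato+ cells, a change of 1.16 ± 0.28, and its difference was 0.92 ± 0.39 (limma adjusted p = 0.491). Pigment genes had their larger changes in the tdTomato+ libraries, where Mlana was at 145 and 97.1 without UV and 1012 and 1790 with UV, and the difference of -2.38 did not pass (limma adjusted p = 0.204).

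**Figure D5:**
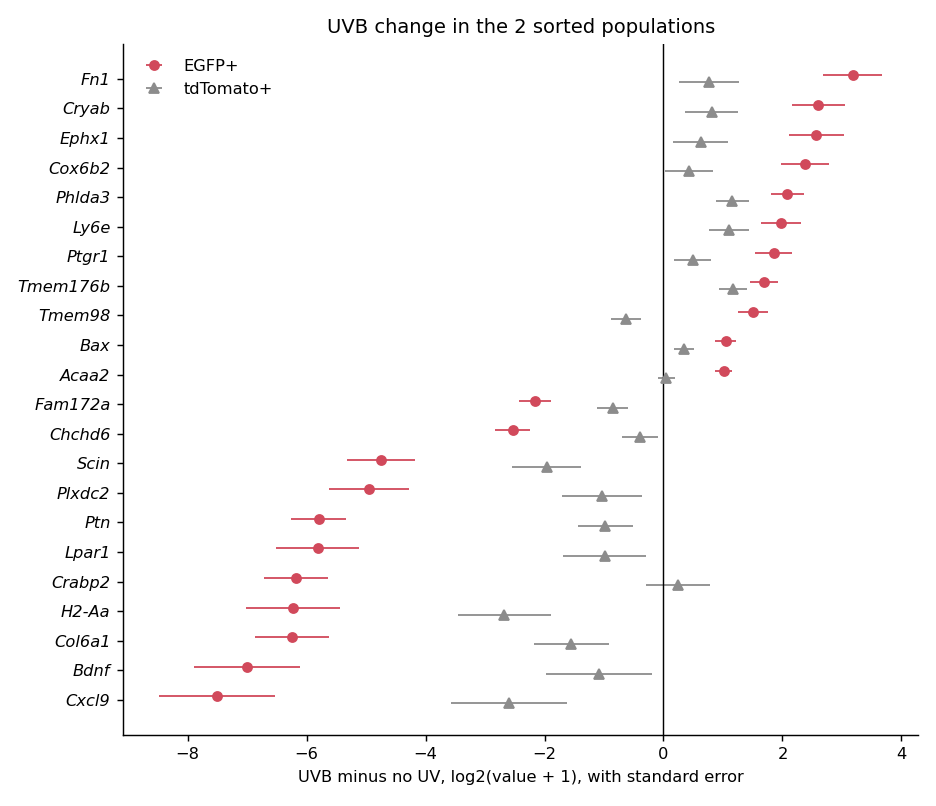
Change with UVB (x axis, log2, with standard errors) of genes of smallest p in each direction in EGFP+ cells, shown for EGFP+ cells (red circles) and tdTomato+ cells (grey triangles). The genes higher in EGFP+ cells run from 1.01 for Acaa2 to 3.18 for Fn1, and the lower ones from -2.16 for Fam172a to -7.51 for Cxcl9; the genes were chosen on the EGFP+ change.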

How the data were processed

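Poly(A)-enriched RNA libraries were sequenced from sorted cells, per the labels' protocols. The submitters' processing notes name mm10, DESeq2 1.14.1, Cufflinks 2.2.1, TopHat2 2.0.12 and FastQC. For the counting tool and the annotation, the sources used here give nothing. The deposited signal columns are reads divided by 1 size factor per library, per the file headers and the values: 195368 of 195368 values were within 0.01 of a whole read (100%). The log2 fold changes, scores and p-values that the authors deposited for EGFP+ against tdTomato+ cells were not used.

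limma 3.58.1 (R 4.3.3) was run on log2(value + 1) with group means over all 8 libraries, a trend and 4 residual degrees of freedom, on genes whose mean reached 1 in any group. Separate mice are replicates, and an exact permutation test of 2 against 2 cannot go below 0.333. edgeR 4.0.16 and DESeq2 1.42.0 on recovered reads, other scalings, pseudocounts of 0.1 and 5, other filters, blocks and leaving out each library were alternatives. Script output was tested on simulated data. The members and the 32 gene lists were chosen with earlier results of these data known. Named genes were the 4 markers given for the comparison, Mitf, Tyr, Dct and Kit, called genes topped up to 12 per direction by smallest p, up to 4 members of smallest p per list, and sex-linked genes. Genes shown outside that rule (Cdkn1a, Mdm2, Gadd45a, Fas, Tyrp1, Pmel, Atf3, Plat, L1cam, H2-Ab1, Mdk, Sox10, Ednrb, Xpc, Ddb2, Ccnb1, Top2a, Ccng1, Zmat3, Rara, Rarg and the long genes) were chosen with their values known. A few genes that the rule names are not reported here. Gene lengths, positions and promoters are from RefSeq on GRCm38, the build named mm10. Transcript lengths and gene strands are from the GENCODE annotation of the same build. The TruSeq RNA kit named in the labels' protocols does not mark strand, so reads of genes that overlap on opposite strands cannot be told apart.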

Additional observations from a re-analysis of the deposited data

Results flagged for a closer look

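The UVB change of Odc1 differed between the populations: its change in EGFP+ cells minus that in tdTomato+ cells was -3.29 on the log2 scale, with a limma adjusted p of 0.0496 for the interaction. Both EGFP+ UV libraries (3498 and 2268 normalized reads) were below both EGFP+ no UV libraries (6386 and 6795), while both tdTomato+ UV libraries (13996 and 12662) were above theirs (3238 and 3143). The change in EGFP+ cells alone was not called (limma adjusted p = 0.116).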

How the results depend on the processing

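The count of 3 called genes became 350 with DESeq2 (84 higher, 266 lower), 16 with quantile normalization (4 higher, 12 lower), 12 with the stricter filter (2 higher, 10 lower), 1 with a pseudocount of 0.1 and 0 in the EGFP+ libraries alone. Leaving out 1 library gave 0 to 1604 calls (0 to 209 higher, 0 to 1395 lower), with 1604 without UV replicate 1 and 8 without no UV tdTomato replicate 1. The 1 difference between populations became 2 with edgeR, 2 with the mouse as a random block, 0 with a pseudocount of 5 and 0 to 1297 when 1 library was left out, with 1018 without UV EGFP replicate 1 and 1297 without no UV tdTomato replicate 1. The causes were not tested. Ptn, Crabp2 and Col6a1 stayed called with edgeR, DESeq2, TMM, quantile normalization, both other filters and the mouse block. Crabp2 lost its call with a pseudocount of 0.1, and Col6a1 with either pseudocount. Mdm2 reversed with edgeR (0.017), DESeq2 (0.041), without no UV replicate 1 (0.08) and without UV replicate 2 (0.39), and Cdkn1a without UV replicate 2 (0.20); their lowest values, without UV replicate 1, were -0.41 and -0.71. Over 64 genes named, 1145 of their alternative values kept direction and side of the threshold, 99 passed it newly, 28 no longer passed and 5 reversed. With the replicate number as a block 2 genes were called, Ptn and Crabp2, and 3 in the difference. Deviations of same-numbered EGFP+ libraries correlated between the arms at r = 0.055. For EGFP+ and tdTomato+ libraries of the same mice, r was 0.087 without UV and 0.056 with UV. Since it was as low for libraries that do share a mouse, this check cannot show whether same-numbered libraries are linked. The 2 settings added after seeing the data changed the length pattern: the median over 200 kb was -0.10 with a mean of at least 500 and -0.79 with transcripts of 2 to 4 kb, where the median up to 10 kb was 4.05e-05 in place of 0.17. Depth limits genes under 3 reads an arm.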
